A study of Homo sapiens with 8 samples.

Results

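The 8 genes described here are the SREBP transcription factor genes SREBF1 and SREBF2, their regulators SCAP, INSIG1 and INSIG2, and the LXR targets ABCA1, ABCG1 and MYLIP. They were taken by symbol from the rows of 2 mRNA-seq count tables that share 21257 symbols, and all 8 were found in both tables. They lie on 8 different chromosomes. On GRCh38, as the table of TFAP2C KD gives it, INSIG1 runs from 155297776 to 155310235 on chromosome 7 (plus strand), SREBF2 from 41833079 to 41907307 on chromosome 22 (plus strand) and SREBF1 from 17810399 to 17837002 on chromosome 17 (minus strand).

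All libraries came from HCT116, a human colorectal cancer cell line, made to express Tet-On shSAE2 stably, an inducible shRNA against UBA2 (also called SAE2), the catalytic subunit of the enzyme that activates SUMO for conjugation to proteins. In the first experiment, these cells received siRNA for 48 hrs, either a control or 1 against TFAP2C, an AP-2 family transcription factor. In the second, they were given DMSO (no Dox) or 1 μg/mL of doxycycline (Dox) for 5 days, the latter labelled UBA2 KD. Each of the 4 groups has 2 libraries, the cells of the siRNA groups carry the shRNA construct too, and no source says whether the line is a single clone or whether replicates came from separate cultures, so the tests measure the spread between these libraries only.

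SREBPs are made as membrane proteins of the endoplasmic reticulum. When sterols are scarce, SCAP escorts them to the Golgi, where proteases release the part that enters the nucleus. SREBP2 mainly drives genes of cholesterol synthesis and uptake, and SREBP1 mainly those of fatty acid synthesis. INSIG1 and INSIG2 hold SCAP back when sterols are plentiful, and INSIG1 and SREBF2 are themselves SREBP targets, so their mRNA is often read together with that of the synthesis enzymes. LXR nuclear receptors respond to oxidized sterols and act the other way: they drive ABCA1 and ABCG1, which export cholesterol from cells, and MYLIP, a ubiquitin ligase that lowers lipoprotein uptake, and in many tissues SREBF1 as well.

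The promoters of SREBF2, INSIG1 and ABCA1 are shown because these genes are known targets of SREBP (SREBF2, INSIG1) or LXR (ABCA1), so that their motif letters can be seen beside their values. RefSeq windows of GRCh38.p14, from 250 bases before to 50 after a start, were at hand for 7 of the 8 genes (not ABCG1). Both strands were searched for the letters of an SRE, TCACNCCAC, of an E-box, CACGTG, of a DR4 element, AGGTNANNNNNGGTCA, and of a CCAAT box, named by its letters. Those of the DR4 element were chosen after the ABCA1 sequence had been seen. They do not overlap each other below, and capitals mark every match. The 250 bases before the start are chr22:41832855-41833104 (plus strand) for SREBF2, chr7:155297628-155297877 (plus strand) for INSIG1 and chr9:104928156-104928405 (minus strand) for ABCA1, each written 5′ to 3′ along the gene.
SREBF2: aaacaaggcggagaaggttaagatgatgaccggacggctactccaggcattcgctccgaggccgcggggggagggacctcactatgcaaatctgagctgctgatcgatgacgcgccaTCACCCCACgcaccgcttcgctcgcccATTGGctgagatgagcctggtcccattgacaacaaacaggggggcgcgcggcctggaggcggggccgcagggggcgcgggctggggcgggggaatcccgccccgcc
INSIG1: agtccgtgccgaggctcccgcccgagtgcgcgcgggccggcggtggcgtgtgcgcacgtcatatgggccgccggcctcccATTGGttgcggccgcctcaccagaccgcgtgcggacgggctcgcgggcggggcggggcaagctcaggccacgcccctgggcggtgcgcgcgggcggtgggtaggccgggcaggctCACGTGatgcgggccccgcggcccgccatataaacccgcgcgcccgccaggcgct
ABCA1: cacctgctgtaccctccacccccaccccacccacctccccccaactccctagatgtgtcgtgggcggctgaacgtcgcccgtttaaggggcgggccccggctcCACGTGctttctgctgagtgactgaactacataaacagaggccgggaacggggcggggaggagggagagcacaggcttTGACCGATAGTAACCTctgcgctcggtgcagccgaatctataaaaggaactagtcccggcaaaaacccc

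The SRE of SREBF2 began 133 bases before the start, and a CCAAT box on the opposite strand began 106 bases before it. Of 35116 RefSeq windows, 1.13% held the SRE letters and 34.6% a CCAAT box. INSIG1 had an E-box, found in 7.26% of windows, 55 bases before its start and a CCAAT box 170 bases before it. ABCA1 had an E-box and, 69 bases before its start on the opposite strand, the DR4 letters, which 0.094% of windows hold. Because the DR4 letters were chosen with the ABCA1 sequence known, their match there was fixed beforehand and the share does not measure how unusual it is. SCAP had an E-box, MYLIP had 2 CCAAT boxes, and none of these letters was found in the windows of SREBF1 or INSIG2. Of the 20 sterol synthesis genes set beside the 8 further on, 15 had a window, of which 13 held a CCAAT box, 2 an E-box and 0 the SRE letters. A match describes the letters only, and the lack of a match says nothing of other SREBP or LXR sites.

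**Figure D1:**
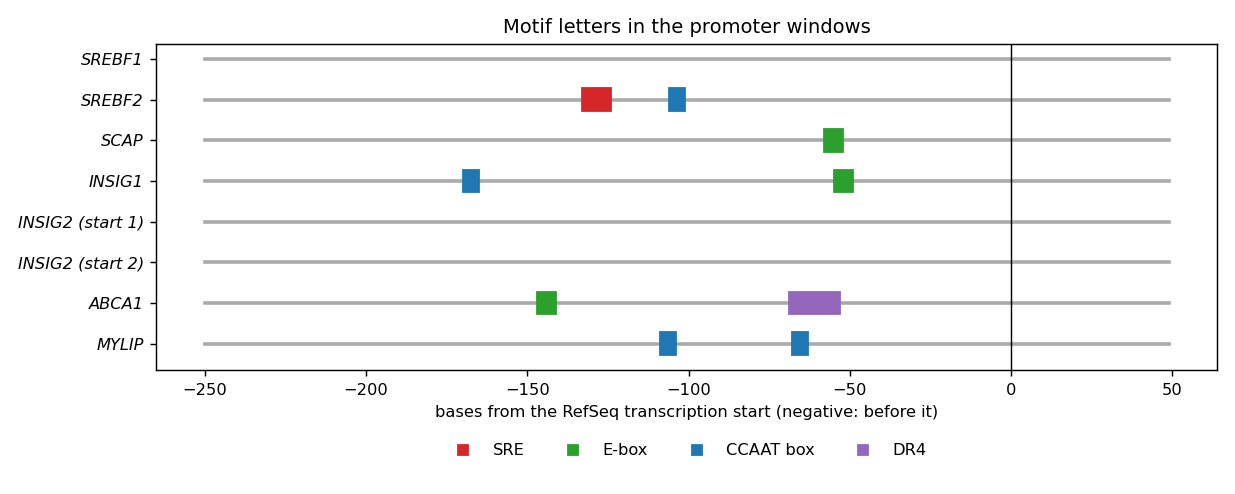
Motif letters in the promoter windows of 7 genes (rows; INSIG2 has 2 starts), by distance in bases from the RefSeq start (x axis, negative before the start). Coloured boxes are matches on either strand. The SRE was found in SREBF2, the DR4 letters, chosen with its sequence known, in ABCA1, and E-boxes in SCAP, INSIG1 and ABCA1.

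Total counts lay between 20785035 and 24465109 in the first experiment and between 18213739 and 20607813 in the second. TFAP2C mRNA fell by 2.34 on the log2 scale in TFAP2C KD (standard error, SE, 0.13). UBA2 mRNA was 162 and 146 CPM without Dox and 147 and 153 CPM with Dox, a log2 fold change of -0.036 (SE 0.056), so the Dox group is called "the libraries labelled UBA2 KD" here. Of 7 epithelial markers, EPCAM, CDH1, KRT8, KRT18 and KRT19 passed the expression filter in both experiments, while VIL1 and CDX1 had at most 3 counts in any library. KRT18, KRT8 and EPCAM were called higher in the libraries labelled UBA2 KD, where 5.52% of all genes tested were. Their log2 fold changes were 0.25, 0.18 and 0.15. In TFAP2C KD, 0 markers were called (edgeR; 2 at an unadjusted p under 0.05, as were 1889 of all 14991 genes tested, and 0 by DESeq2). The summed level of the list was 2132 and 2148 CPM without Dox and 2388 and 2480 CPM with Dox. It was 2782 and 2891 CPM with control siRNA and 3111 and 3380 CPM in TFAP2C KD. The sums did not overlap in either experiment, but keratins made up most of them. In TFAP2C KD, mean EPCAM was 192.5 CPM against 192.7 CPM with control siRNA, and mean CDH1 121.0 against 125.0 CPM. Of the 5 tested there, 3 had both knockdown libraries above both controls and 1 below. Of all genes tested, 44.7% had such groups in either direction. The median log2 fold change of these 5 markers in TFAP2C KD was 0.12. It was 0.19 without TFAP2C KD replicate 2 and 0.051 without replicate 1. Of 5 markers of other cell types, PTPRC, PECAM1 and ALB did not pass the filter in either experiment, and CD68 and COL1A1 did. Of the 5, 0 were called (edgeR; 1 at an unadjusted p under 0.05, with Dox, where 22.7% of all genes tested were, and 0 by DESeq2). Their summed level lay between 20.7 and 27.5 CPM in the second experiment and between 44.1 and 48.5 CPM in the first. The part of these markers in the results was not tested. The 2 TFAP2C KD libraries differed more from each other than other replicates did (chi-square per degree of freedom 9.09, against 2.55 to 2.76 in the other groups).

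Next, the 8 genes were compared between the libraries labelled UBA2 KD and those without Dox. The comparison shows how these genes differ with Dox, which is given to induce the shRNA. No group received Dox without carrying the shRNA, so an effect of Dox itself cannot be told apart from that of the shRNA. INSIG1 had the largest fall of the 8, from a mean of 124 to 59.5 CPM (counts scaled to library size by TMM). SREBF2 and SREBF1 fell by small amounts. SCAP, INSIG2 and the LXR targets ABCA1, ABCG1 and MYLIP were not called. In all, 3 of 8 genes passed an adjusted p of 0.05, all lower, where 9.98% of the 13381 genes tested were called and 4.47% were called lower (edgeR's quasi-likelihood test, Benjamini-Hochberg adjustment). Of the 8, 6 had both labelled UBA2 KD libraries beyond both controls, all of them lower, where 51.3% of all genes tested had such groups. An exact test of 2 against 2 libraries cannot give a two-sided p below 0.333, so calls come from the model across all genes. In bulk RNA, fewer cells with a high level and less mRNA per cell cannot be told apart.

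**Figure D2:**
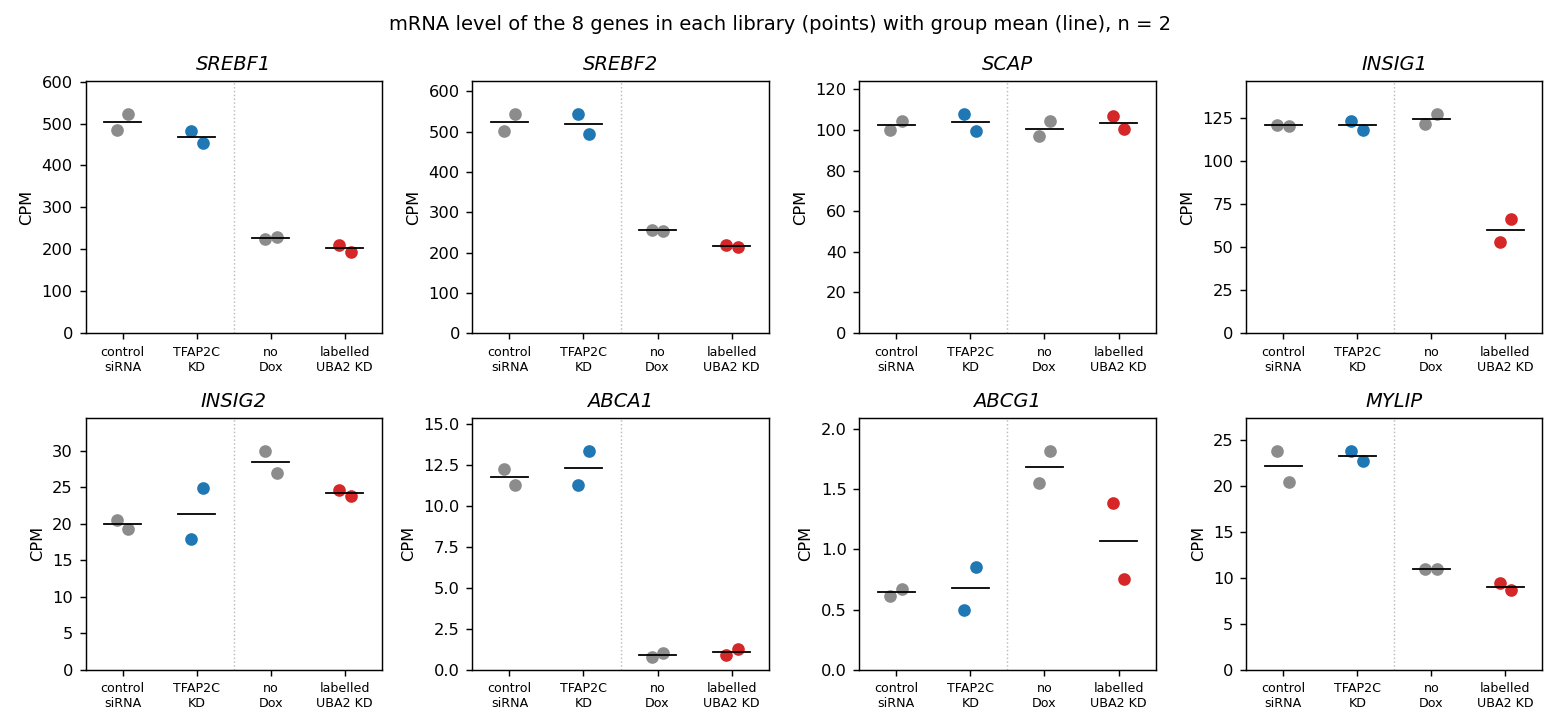
mRNA level of each of the 8 genes in CPM (y axis, starting at 0) in every library (points) with the group mean (line, n = 2). The dotted line parts the 2 experiments, which were counted separately. INSIG1 is at 121 and 127 CPM without Dox and at 52.9 and 66.2 CPM in the libraries labelled UBA2 KD. In the first experiment it is between 118 and 123 CPM.

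INSIG1, which retains SCAP in the endoplasmic reticulum, was at 121 and 127 CPM without Dox and at 52.9 and 66.2 CPM in the libraries labelled UBA2 KD. The groups did not overlap, and the gap between them was wider than the difference between replicates in either group. The group means were 124 ± 4.18 CPM and 59.5 ± 9.37 CPM (SD, n = 2). INSIG1 fell by 1.06 on the log2 scale (SE 0.071, 95% interval -1.20 to -0.92, adjusted p = 5.99e-13 by edgeR's quasi-likelihood test), which is a decrease of 52.0%. Over the 4 pairings of a labelled UBA2 KD library with a control library, the fall lay between 45.4% and 58.4%. Its fall ranked 28 in size among the 598 genes called lower, and its p ranked 16 among the 13381 tested. From 2270 and 2654 counts in the controls, the gene dropped to 953 and 1232 counts, so depth does not limit this value.

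INSIG2, the paralogue of INSIG1 that also retains SCAP, was at 30.0 and 26.9 CPM without Dox and at 24.7 and 23.7 CPM in the libraries labelled UBA2 KD. Its groups did not overlap, but the log2 fold change of -0.23 (SE 0.085) had an adjusted p of 0.0814 in edgeR's quasi-likelihood test. INSIG2 was called lower in 2 of 12 alternatives. With library sizes unscaled its value was -0.26 with an adjusted p of 0.0425 by the same test, and the other was a crossed pairing of replicates. SCAP, the escort of the SREBPs, was at 96.9 and 104 CPM without Dox and at 107 and 100 CPM with it. These groups overlapped, and the 95% interval of its log2 fold change ran from -0.079 to 0.16.

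SREBF2, the gene of SREBP2, was at 255.6 and 253.8 CPM without Dox and at 219.8 and 213.3 CPM in the libraries labelled UBA2 KD. Replicates lay close together and the groups did not overlap. Its log2 fold change was -0.23 (SE 0.048, edgeR adjusted p = 0.00103), a decrease of 15.0%, and it ranked 475 by size among the 598 genes called lower. SREBF1, the gene of SREBP1, was at 224.5 and 229.9 CPM without Dox and at 209.5 and 194.5 CPM in the libraries labelled UBA2 KD. The groups did not overlap, and the 4 pairings gave falls from 6.66% to 15.4%. Its log2 fold change was -0.17 (SE 0.051, edgeR adjusted p = 0.0283), and this call was lost without control replicate 1 (adjusted p = 0.0665), without control replicate 2 (0.194), without labelled UBA2 KD replicate 2 (0.228), in the fit of all 8 libraries (0.142) and with DESeq2 (0.0663). The end of SREBF1 overlaps RAI1 on the other strand, and the strand setting of the counting is not given in the sources used here, so the genes could share reads.

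Of the LXR targets, ABCA1 and ABCG1 had low counts. ABCA1, the exporter of cholesterol to lipid-poor apolipoproteins, was at 0.748 and 1.01 CPM without Dox and at 0.888 and 1.24 CPM in the libraries labelled UBA2 KD, from 14 to 23 counts a library. The groups overlapped, and the 95% interval of the log2 fold change, -0.45 to 0.98, covers both a fall and a rise. ABCG1, which exports cholesterol to mature lipoprotein particles, was at 1.55 and 1.82 CPM without Dox and at 1.39 and 0.752 CPM with it, from 14 to 38 counts a library. Its groups did not overlap, with a log2 fold change of -0.66 (SE 0.31, edgeR adjusted p = 0.194), and the labelled UBA2 KD libraries differed widely from each other. Without labelled UBA2 KD replicate 1 the value was -1.16 and without replicate 2 it was -0.28. MYLIP was at 11.0 and 10.9 CPM without Dox and at 9.44 and 8.70 CPM with it. These groups did not overlap either, with a log2 fold change of -0.27 (SE 0.12, edgeR adjusted p = 0.159). At an unadjusted p under 0.05, ABCG1 and MYLIP pass and ABCA1 does not, where 22.7% of all genes tested pass. DESeq2 called 0 of the 3, with no adjusted p for ABCA1 or ABCG1. A change of INSIG1's size would lie outside the 95% intervals of ABCA1 and MYLIP, but inside that of ABCG1 (-1.30 to -0.031).

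**Figure D3:**
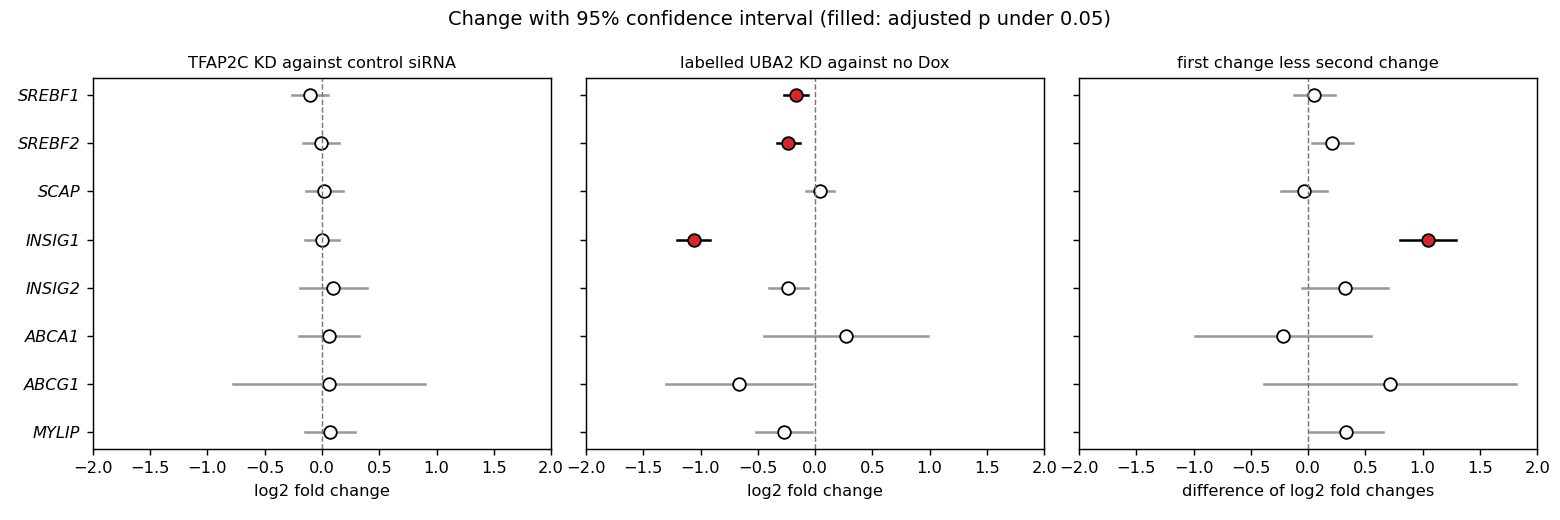
Log2 fold change of the 8 genes (rows) in TFAP2C KD (left) and the libraries labelled UBA2 KD (middle), with the left value less the middle one on the right, with 95% intervals from edgeR. Filled points have an adjusted p under 0.05: SREBF1, SREBF2 and INSIG1 in the middle panel, and INSIG1 in the right panel.

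The SREBP2 targets were then set beside the LXR targets in the same libraries. Of 20 sterol synthesis genes, all 20 were tested, 18 fell and 0 rose, where 4.47% of all genes tested were called lower and 5.52% higher. Their median log2 fold change was -0.50, where that of all genes tested was -0.00042. In 19 of the 20, both labelled UBA2 KD libraries lay below both controls. Of all genes tested, 51.3% had both libraries beyond both controls in either direction. The smallest adjusted p was that of IDI1, the isopentenyl diphosphate isomerase, which was at 135 and 138 CPM without Dox and at 78.2 and 89.6 CPM in the libraries labelled UBA2 KD. HMGCS1, which makes the precursor of mevalonate, was at 172 and 181 CPM and at 106 and 121 CPM. Neither gene's groups overlapped, and their log2 fold changes were -0.71 and -0.63 (SEs 0.061 and 0.059, edgeR adjusted p = 2.28e-10 and adjusted p = 1.08e-09). DHCR7, which completes cholesterol from its precursor, and FDFT1, the squalene synthase, had log2 fold changes of -0.54 and -0.56. PMVK, at 0.045, and TM7SF2, at -0.26, were the genes of the list not called. The summed level of the 20 genes was 2436 and 2478 CPM without Dox and 1706 and 1799 CPM with it. INSIG1, with -1.06, lay below every gene of the sterol synthesis list, whose lowest value was -0.71, while SREBF2, with -0.23, lay above all of those called.

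Of 10 LXR targets, with ABCA1, ABCG1 and MYLIP among them, 7 passed the expression filter, and ABCG5, ABCG8 and CETP had at most 2 counts in any library. In the libraries labelled UBA2 KD, 2 of the 7 fell and 0 rose, where 4.47% of all genes tested were called lower. The median log2 fold change was -0.25. LPCAT3, which remodels phospholipids, had a log2 fold change of -0.26 (adjusted p = 0.0181, edgeR's quasi-likelihood test). The count of 2 changed with the processing: DESeq2 and the fit of all 8 libraries called 0, the replicate block 1, and the fits without control replicate 2 or without labelled UBA2 KD replicate 2 called 0. The median of ABCA1, ABCG1 and MYLIP alone was -0.27, which is the value of MYLIP itself, with ABCA1 at 0.27 and ABCG1 at -0.66. The LXR receptor genes NR1H2 and NR1H3 were at 27.7 ± 0.480 and 11.3 ± 0.117 CPM without Dox and at 29.4 ± 2.35 and 11.2 ± 0.548 CPM with it (SD, n = 2). Of the 6 genes of LXR and RXR receptors and corepressors, 0 were called (3 at an unadjusted p under 0.05, 0 by DESeq2), with a median of 0.11. Of all genes tested, 22.7% had such an unadjusted p.

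Of 21 genes of SREBP processing and degradation, 3 rose and 0 fell, with a median log2 fold change of 0.042, where 5.52% of all genes tested were called higher and 4.47% lower. At an unadjusted p under 0.05 there were 10 of the 21, where 22.7% of all genes tested had such a p. MBTPS1, the first of the Golgi proteases that cut SREBPs, was at 226 and 223 CPM without Dox and at 266 and 251 CPM in the libraries labelled UBA2 KD, a log2 fold change of 0.20 (edgeR adjusted p = 0.00508). ERLIN2, tied to the sterol-regulated degradation of HMG-CoA reductase, had 0.22 (adjusted p = 0.0261). The count of 3 became 0 without control replicate 2 and in the fit of all 8 libraries, 1 without labelled UBA2 KD replicate 1 and 1 with DESeq2, and 1 gene was called lower without labelled UBA2 KD replicate 2. Of 12 fatty acid synthesis genes, the targets ascribed to SREBP1, 7 fell and 0 rose, with a median of -0.21. SCD, the stearoyl-CoA desaturase, was at 1824 and 1792 CPM without Dox and at 1169 and 1207 CPM with it, a log2 fold change of -0.61 (edgeR adjusted p = 2.63e-13). FASN, the fatty acid synthase, ACLY, which makes cytosolic acetyl-CoA, and PNPLA3, a lipid droplet enzyme, had -0.36, -0.25 and -0.75.

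Of 17 genes of cholesterol uptake and transport, 15 were tested, 4 fell and 0 rose, where 4.47% of all genes tested were called lower. The median log2 fold change of -0.036 was close to 0. STARD4, a sterol carrier within cells, was at 42.4 and 36.1 CPM without Dox and at 20.3 and 24.3 CPM in the libraries labelled UBA2 KD, a log2 fold change of -0.81 (edgeR adjusted p = 4.61e-08). LRP1, an endocytic receptor, had -0.59, SCARB1, the receptor for high-density lipoprotein, had -0.28, and TMEM97, a sterol-binding membrane protein, had -0.21. All lists in these paragraphs were chosen with earlier results of these data known, so their counts are a description.

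**Figure D4:**
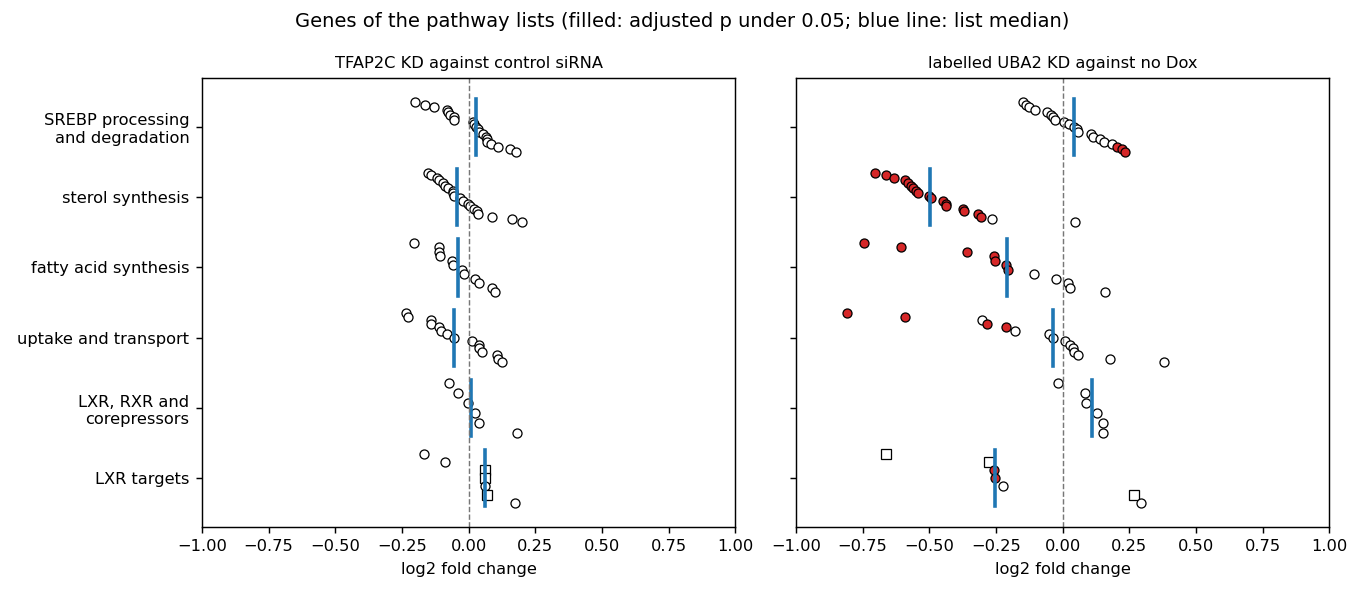
Log2 fold change (x axis) of every tested gene of the 6 pathway lists (rows) for TFAP2C KD (left) and for labelled UBA2 KD (right). Squares are ABCA1, ABCG1 and MYLIP, filled symbols have an adjusted p under 0.05, and blue lines are list medians. In the right panel the sterol synthesis genes have a median of -0.50, and no symbol is filled in the left panel.

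In TFAP2C KD, 0 of the 8 genes were called, where 0.74% of the 14991 genes tested were (edgeR's quasi-likelihood test; 0 of the 8 at an unadjusted p under 0.05 and 0 by DESeq2). Of all genes tested, 1889 had such an unadjusted p. INSIG1 was at 121 and 120 CPM with control siRNA and at 123 and 118 CPM in TFAP2C KD. The groups overlapped, and the 95% interval of its log2 fold change, -0.15 to 0.15, leaves out a change of the size seen with Dox. SREBF2 was at 503 and 544 CPM with control siRNA and at 544 and 496 CPM in TFAP2C KD, and its groups overlapped too. SREBF1 was at 484 and 523 CPM with control siRNA and at 483 and 454 CPM in TFAP2C KD. It was the 1 gene of 8 whose groups did not overlap, where 44.7% of all genes tested had such groups, and its log2 fold change of -0.11 (SE 0.070) had an adjusted p of 0.564 in edgeR.

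SCAP was at 100.2 and 104.6 CPM with control siRNA and at 107.9 and 99.7 CPM in TFAP2C KD. INSIG2 was at 20.6 and 19.3 CPM with control siRNA and at 17.9 and 24.9 CPM in TFAP2C KD, the latter on both sides of the controls. Without TFAP2C KD replicate 1, INSIG2 had a log2 fold change of 0.32 with an adjusted p of 0.0398, and without replicate 2 it had -0.15. The TFAP2C KD libraries thus decide its direction. ABCA1, with 235 to 299 counts a library in this experiment, was at 12.3 and 11.3 CPM with control siRNA and at 11.3 and 13.4 CPM in TFAP2C KD. ABCG1, with 12 to 19 counts a library, was at 0.616 and 0.671 CPM and at 0.500 and 0.850 CPM. MYLIP was at 23.9 and 20.4 CPM with control siRNA and at 23.8 and 22.8 CPM in TFAP2C KD. Their log2 fold changes were 0.062 for ABCA1, 0.062 for ABCG1 and 0.070 for MYLIP, with SEs of 0.12, 0.39 and 0.10, and the groups of all 3 overlapped.

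The pathway lists gave 0 calls in TFAP2C KD by edgeR and by DESeq2. Of the 20 sterol synthesis genes, 0 had an unadjusted p under 0.05, and the median log2 fold change was -0.043. Of the 7 LXR targets tested, 1 had an unadjusted p under 0.05, and the median was 0.062. The medians of the lists of SREBP processing, fatty acid synthesis, LXR and RXR receptors, and uptake and transport were 0.028, -0.040, 0.010 and -0.056. In that order, 1, 0, 0 and 2 genes had an unadjusted p under 0.05. Of all 14991 genes tested, 1889 had such a p in edgeR. With the crossed pairing of replicates, where 3.12% of all genes tested were called, 1 uptake and transport gene was called lower. Without TFAP2C KD replicate 1 the median of the SREBP processing genes was -0.0021, and without replicate 2 it was -0.026. Without TFAP2C KD replicate 2, where 18.2% of all genes tested were called, 5 sterol synthesis genes were called, 2 higher and 3 lower. In that setting 3 of the SREBP processing genes were higher and 1 lower, 1 fatty acid synthesis gene was higher and 1 lower, 1 receptor or corepressor gene was higher and 3 uptake and transport genes were lower.

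A difference between the knockdowns was tested with all 8 libraries together, on 13179 genes of both tables, as the change in TFAP2C KD less that in the libraries labelled UBA2 KD. INSIG1 was the 1 gene of 8 called, where 2.37% of the genes tested were. Its changes differed by 1.05 on the log2 scale (SE 0.12, 95% interval 0.80 to 1.29, adjusted p = 0.000122 by edgeR's quasi-likelihood test). SREBF2, with a difference of 0.21 (SE 0.083, adjusted p = 0.242), and SREBF1, with 0.052 (adjusted p = 0.850), were not called, so their falls with Dox are not shown to be particular to that experiment. INSIG2 had a difference of 0.32 (adjusted p = 0.442), which was 0.56 without TFAP2C KD replicate 1 and 0.055 without replicate 2, and SCAP one of -0.035 (adjusted p = 0.923). The differences of ABCA1, ABCG1 and MYLIP were -0.22, 0.71 and 0.33, with adjusted p = 0.853, adjusted p = 0.588 and adjusted p = 0.334. With a library left out, that of ABCG1 ran from 0.29 without TFAP2C KD replicate 2 to 1.22 without labelled UBA2 KD replicate 1. Of the 20 sterol synthesis genes, 13 differed, the change being lower with Dox in all 13, and the median difference was 0.44. The count of 13 was 9 with the replicate block and 15 when TFAP2C KD replicate 1 or replicate 2 was left out. It was 5 without control siRNA replicate 1, 5 without control siRNA replicate 2, 3 without no Dox replicate 1, 3 without no Dox replicate 2, 2 without labelled UBA2 KD replicate 1 and 6 without labelled UBA2 KD replicate 2, while the median difference stayed between 0.39 and 0.47. The knockdowns also differ in agent and time, which cannot be told apart here.

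Per length, in RPKM, SREBF2 had the highest level of the 8 genes in all 4 groups. Without Dox, INSIG1 at 40.4 ± 1.36 RPKM and SREBF1 at 38.8 ± 0.645 RPKM (SD, n = 2) followed SREBF2 at 53.0 ± 0.263 RPKM, and INSIG1 and SREBF1 differed by less than the sum of their SDs. In the libraries labelled UBA2 KD, INSIG1 at 19.4 ± 3.05 RPKM stood below SCAP at 24.5 ± 1.05 RPKM, so that its place in the order went from 2 to 4. INSIG2 at 11.1 ± 0.848 RPKM and MYLIP at 3.58 ± 0.0183 RPKM came next without Dox, and ABCG1 at 0.383 ± 0.0437 RPKM and ABCA1 at 0.0820 ± 0.0171 RPKM came last. With control siRNA, SREBF1 at 62.9 ± 3.42 RPKM stood below SREBF2 at 69.5 ± 3.81 RPKM, again by less than the sum of the SDs, and INSIG1 followed at 33.1 ± 0.0826 RPKM. SCAP at 16.4 ± 0.497 RPKM, MYLIP at 7.23 ± 0.798 RPKM and INSIG2 at 5.06 ± 0.222 RPKM came next, each apart from its neighbour by more than the SDs, and TFAP2C KD had the same order. With control siRNA, ABCA1 at 1.05 ± 0.0632 RPKM stood above ABCG1 at 0.105 ± 0.00646 RPKM, the reverse of their order in the second experiment. The tables rest on different annotations and were normalized separately, so levels are not compared between them.

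The genes most like INSIG1, SREBF2 and SREBF1 over the 8 libraries were sought among 9364 genes, by Pearson's r of log2 CPM less the mean of the gene's own controls. With INSIG1 these were PRAME (r = 0.995), PAIP2B (0.994) and RCOR2 (0.994), none of which is in the sterol synthesis list. With SREBF2 they were STARD10 (r = 0.994), DDX23 (0.989) and FAM189B (0.987), and with SREBF1 HID1 (0.989), PTPN6 (0.984) and SSBP4 (0.981). These values are a description, since all genes share the same 8 libraries and, for INSIG1, the libraries labelled UBA2 KD stand apart from the other 6.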

How the data were processed

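Single-end mRNA-seq reads were, per the methods and the labels, aligned by the authors to hg19 with TopHat2 and counted on RefSeq genes with HTSeq 0.9.1, and the deposited tables hold raw read counts per gene, without normalization. The table of TFAP2C KD (42125 genes) has GRCh38 positions and Ensembl gene types, however, and that of UBA2 KD (23393 genes) hg19 positions. Counts were filtered with filterByExpr, scaled by TMM and tested with the quasi-likelihood test of edgeR 4.0.16 in R 4.3.3, each knockdown against its own controls, with two-sided p-values adjusted by Benjamini-Hochberg over all genes tested. CPM used TMM-scaled library sizes, and RPKM the length column of the tables. The biological coefficient of variation came to 6.28% in the first table and 3.56% in the second. Alternatives were DESeq2 1.42.0, other scalings and filters, a replicate block, 1 fit of all 8 libraries, and each library left out. The code was tested on simulated data.

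The genes named are the 8 genes, both knockdown targets, up to 4 called genes per list and direction by smallest adjusted p, and the 3 genes most like each called gene, among those whose log2 CPM averaged 3 or more. PMVK, TM7SF2, ABCG5, ABCG8, CETP, NR1H2 and NR1H3 were named after their values were seen. The 8 genes and all lists were chosen with earlier results of these data known. ChIP-seq and proteomics were not analysed here. Single values of 2 called genes of the pathway lists are not reported here, and the counts and medians of the lists include them.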

Additional observations from a re-analysis of the deposited data

Results flagged for a closer look

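INSIG1 was flagged because its change differed between the knockdowns by a test of the difference itself. The change in TFAP2C KD less that in the libraries labelled UBA2 KD was 1.05 on the log2 scale (standard error 0.12, with an adjusted p of 0.000122 from edgeR's quasi-likelihood test over 13179 genes). INSIG1 was at 52.9 and 66.2 CPM in the libraries labelled UBA2 KD and at 121 and 127 CPM without Dox. In the first experiment it was at 121 and 120 CPM with control siRNA and at 123 and 118 CPM in TFAP2C KD. The experiments also differed in agent, time and counting, which cannot be told apart from the gene targeted.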

How the results depend on the processing

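The fall of INSIG1 in the libraries labelled UBA2 KD kept its call in all 12 alternatives (-1.23 to -0.91, largest adjusted p 2.74e-06), as did that of SREBF2 (-0.26 to -0.21, largest adjusted p 0.0337), and the INSIG1 difference in all 14 (0.90 to 1.22, largest adjusted p 0.00327). SREBF1 lost its call in 5 of 12. With 2 libraries a group, leaving 1 out assumes that the lone sample varies like the others, and the low counts of ABCA1 and ABCG1 limit their values most.

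LXR targets called in the libraries labelled UBA2 KD, 2 in the report, were 0 with DESeq2's Wald test, 1 with the replicate block, 0 with all 8 libraries in 1 fit and 0 to 1 with a library left out. No label says whether replicate numbers pair the libraries. The deviations of same-numbered libraries correlated by -0.395 and -0.113 across genes, which cannot settle it with so few libraries. A crossed pairing was therefore added after the data were seen. Over all genes, the replicate block called 172 and 1308 and the crossed pairing 467 and 1708, against 111 and 1336 in TFAP2C KD and the libraries labelled UBA2 KD. Other counts over all genes that moved by over 1.5 times were 398 without a filter, 271 with all 8 libraries in 1 fit, and 49 to 2825 with a library left out in TFAP2C KD. In the libraries labelled UBA2 KD these were 673 with DESeq2, 696 with all 8 libraries and 833 without control replicate 2. For the difference, 313 in the report, they were 607 without a filter, 173 with the replicate block and 113 to 1554 with a library left out.

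With a library left out, the median log2 fold change of the 20 sterol synthesis genes in TFAP2C KD lay between -0.068 and 0.024. The difference of INSIG2 between the knockdowns was 0.56 without TFAP2C KD replicate 1 and 0.055 without replicate 2. That of SREBF2 was 0.27 without replicate 2. Changes near 0 turned sign. In TFAP2C KD, INSIG1 was 0.00081 with DESeq2 size factors, 0.00081 with the Wald test and 0.0045 without a filter, and SCAP was -0.0089 with library size only. With a library left out, the ranges in TFAP2C KD were -0.031 to 0.032 for INSIG1, -0.037 to 0.079 for SCAP, -0.077 to 0.060 for SREBF2, -0.15 to 0.32 for INSIG2, -0.064 to 0.18 for ABCA1, -0.35 to 0.40 for ABCG1 and -0.045 to 0.19 for MYLIP. They were -0.0086 to 0.096 for SCAP in the libraries labelled UBA2 KD, and -0.0021 to 0.12, -0.089 to 0.025 and -0.46 to 0.040 for the differences of SREBF1, SCAP and ABCA1. The cause was not tested.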
